A study of Arabidopsis thaliana with 12 samples.

Results

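The Hsp70 chaperones of plant organelles and their GrpE nucleotide exchange factors are encoded in the nucleus of Arabidopsis thaliana by 8 genes, and all 8 were found by locus identifier among the 33602 gene loci counted. They are the mitochondrial Hsp70 genes MTHSC70-1 (AT4G37910) and MTHSC70-2 (AT5G09590), the plastid Hsp70 genes CPHSC70-1 (AT4G24280) and CPHSC70-2 (AT5G49910), the mitochondrial GrpE genes MGE1 (AT5G55200) and MGE2 (AT4G26780), and the plastid GrpE genes CGE1 (AT5G17710) and CGE2 (AT1G36390). Total RNA depleted of ribosomal RNA was sequenced from whole wild-type Col-0 seedlings raised in shaken liquid culture, with n = 3 libraries in each of 4 groups. Controls were 6 days old and unheated. Seedlings of the priming group were 6 days old and had 30 min at 38 °C. Those of the heat shock group were 7 days old and went straight to 43 °C for 30 min. Those of the primed heat shock group, also 7 days old, had 2 h at 38 °C, 22 h of recovery at 21 °C and then 30 min at 43 °C. The group labels give these times, while the general protocol names 2 h for both temperatures. Age and heat cannot be told apart where a 7-day group is set against a 6-day group. No group was taken after recovery without the 43 °C treatment, so levels at the start of that treatment were not measured.

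Hsp70 proteins bind exposed hydrophobic stretches of unfolded proteins and release them in a cycle driven by ATP. J-domain proteins start ATP hydrolysis, which closes the chaperone on its client, and GrpE proteins open it again by exchanging ADP for ATP. In mitochondria the cycle pulls precursor proteins through the inner membrane, refolds them and serves iron-sulphur cluster assembly. In the plastid stroma it assists import and folding, and plants lacking CPHSC70-1 are known for variegated cotyledons and weak heat tolerance.

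Aligned reads numbered 72075150 to 152118790 per library, and the members received 297 to 656514 reads in a library, so none was lost to the filter on low counts. Levels are given as CPM, read counts relative to library size after scaling by the trimmed mean of M values (TMM). A gene was called raised or lowered at a Benjamini-Hochberg adjusted p under 0.05 in the quasi-likelihood test of edgeR, adjusted over 26161 sequences. Dropping the scaling factor shifted the median log2 change of all sequences to -0.88 in priming and to -0.48 in heat shock relative to control, and to 0.12 between primed and unprimed heat shock. Changes below are therefore relative to the median sequence, and small ones that change direction without the factor are named. All 5 shoot and all 5 root markers were tested, with summed levels of 5857 to 6223 CPM for shoot and 467 to 700.2 CPM for root markers in controls. Shoot markers summed to 7932 to 10717 CPM in priming, 7375 to 8500 in heat shock and 8352 to 9688 in primed heat shock, and root markers to 422 to 461, 553 to 707 and 716 to 730.1 CPM. PYK10 made up most of the root sum, with 661 CPM on average in primed heat shock, where it was 0.54 (log2) above control with a call. There COBL9, CASP1 and EXP7 were lowered by -1.57, -1.17 and -1.16, and NRT2.1 gave -1.02 with no call against control and -1.82, lowered, against heat shock. Their part in the results was not tested, and fewer cells of a type cannot be told apart from less RNA per cell in whole seedlings. Seed markers, 4 of 5 of them tested, summed to at most 12.4 CPM in any library, and no marker was at 0 in every library of a group.

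The members of a kind resemble each other in sequence, so shared reads were examined first. Coding sequences of CPHSC70-1 and CPHSC70-2 were identical at 85.2% of aligned bases, those of MGE1 and MGE2 at 76.4%, those of MTHSC70-1 and MTHSC70-2 at 75.3% and those of CGE1 and CGE2 at 61.5%. Yet in RefSeq transcripts the plastid Hsp70 genes had 6 words of 31 bases in common, 0.216% of those of CPHSC70-1, and the other same-organelle genes had none. MTHSC70-2 shared 483 words, 19.0% of its own, with AT4G32208, an annotated protein-coding locus on chromosome 4 whose reads equalled 1.16% to 2.38% of those of MTHSC70-2. Overlap with a gene on the opposite strand made up 14.4% of the words of CGE2, 9.21% of those of MGE1, 5.07% of those of MGE2 and 1.27% of those of CPHSC70-2. The library kit keeps strand, per the labels, but the sources used here do not say whether counting used it, so that portion of their reads is uncertain. The annotation also places opposite-strand noncoding genes over 779 bases of CGE2 (AT1G06977) and 106 bases of CPHSC70-1 (AT4G03095), neither analysed here, so reads of those stretches are uncertain too. For CGE2 the neighbour, AT1G36380, was lower by -0.84 ± 0.18 (log2, SE) in priming and by -1.04 ± 0.18 in heat shock than in controls. For CPHSC70-2 it was AT5G49920, with at most 693 reads in a library, which rose by 5.20 ± 0.17 in priming and by 4.97 ± 0.17 in heat shock. The neighbour of MGE1, AT5G55210, had 667 to 2104 reads. It gave 0.26 ± 0.09 in priming, -0.35 ± 0.09 in heat shock and 0.29 ± 0.09 between primed and unprimed heat shock, all called. That of MGE2, AT4G26770, had 92 to 538 reads. It gave 0.41 ± 0.19 (not called), 0.75 ± 0.19 and 0.80 ± 0.18 (both called) in the same order.

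Heat shock factors bind heat shock elements, inverted repeats of GAA and TTC blocks, and such letters were searched for near the 8 members. Both 2-unit forms (GAANNTTC and TTCNNGAA, each its own reverse complement) and both 3-unit forms (the first with NNGAA added at its end and the second with NNTTC, which read as each other on the opposite strand and contain both 2-unit forms) were searched on both strands. In the 250 bases before the annotated transcription start, 0 of 8 members had a match, against 16.2% of 27443 protein-coding genes. A second window, chosen after that result, took the 250 genomic bases before the start codon. There 4 of 8 members had a 2-unit match, against 19.5% of genes, and 3 of 8 a 3-unit match, against 0.623% of genes. The sites with 8 bases on either side follow, 5′ to 3′ on the gene's strand, from RefSeq assembly TAIR10.1, with the GAA and TTC blocks in capitals.
MTHSC70-2, chr5:2975572-2975595, plus strand: accatctaGAAtcTTCcctcaacc
CPHSC70-1, chr4:12589906-12589934, plus strand: atcttctcTTCtcGAAacTTCaagtgggg
CPHSC70-2, chr5:20303341-20303369, plus strand: caaccattTTCtaGAAccTTCcacttctt
CGE1, chr5:5841845-5841873, minus strand: aaactgtaGAAgtTTCaaGAAaatctaaa
Counted from the start codon, the elements began at base -141 in MTHSC70-2, -180 in CPHSC70-1, -121 in CPHSC70-2 and -226 in CGE1. The first of these lay 144 bases downstream of the annotated transcription start, the next ones 104 and 15 bases downstream, and that of CGE1 spanned it. These letters were not in the windows of MTHSC70-1, MGE1, MGE2 or CGE2. MGE2, raised 31.3-fold in priming, had no match, while CGE1, raised 1.83-fold, had a 3-unit one. A relation between these letters and the changes was not tested. In MGE2 the start codon lay 298 bases after the annotated transcription start, so the first transcribed bases were in neither window. The same holds for MTHSC70-2 (285 bases) and CPHSC70-1 (284 bases). A match is a description of letters and not a measured binding site.

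**Figure D1:**
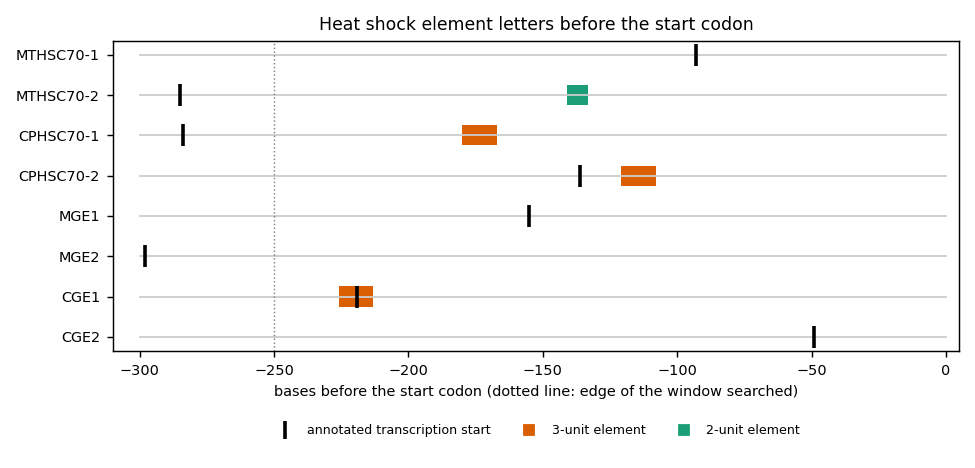
Position of heat shock element letters in bases before the start codon (x axis) for the 8 genes (rows), with 3-unit elements in orange, 2-unit elements in green and the annotated transcription start as a black tick. Of the 8 genes, 3 carry a 3-unit element, MTHSC70-2 carries a 2-unit element, and the other rows are empty within the 250 bases searched.

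The mitochondrial Hsp70 genes had nearly equal levels in unheated seedlings and very different ones in heat. MTHSC70-2 had 73.5, 60.7 and 64.8 CPM in control replicates 1 to 3. It reached 6346, 6387 and 6152 CPM in priming, which is 94.9-fold the control level (log2 6.57 ± 0.17, edgeR adjusted p = 5.87e-14). Heat shock gave 242, 305 and 266 CPM, and primed heat shock 265, 246 and 313 CPM. Priming libraries lay far above all others, the 43 °C libraries of both kinds overlapped in the middle, and controls were lowest. Heat shock stood 4.09-fold above control (edgeR adjusted p = 2.06e-08), while primed heat shock against heat shock gave log2 0.02 ± 0.13 (edgeR adjusted p = 0.942). Heat shock was 23.2-fold lower than priming. With the reads of AT4G32208 added to MTHSC70-2, an alternative chosen after seeing the data, the changes were log2 6.57 in priming and 2.02 in heat shock.

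MTHSC70-1, the other mitochondrial Hsp70, moved little. Its libraries ranged from 64.9 to 73.1 CPM in controls, 82.0 to 88.8 in priming, 87.9 to 105.8 in heat shock and 80.04 to 95.2 in primed heat shock. Controls lay below every heated library, and the 3 heated groups overlapped. It rose 1.25-fold in priming (log2 0.33 ± 0.10, edgeR adjusted p = 0.00996), where the value was -0.54 without a scaling factor, and 1.43-fold in heat shock (log2 0.52 ± 0.10, edgeR adjusted p = 3.86e-04), where it was 0.05 and not called without one. Primed heat shock against heat shock gave -0.18 ± 0.10 (edgeR adjusted p = 0.213). Heat shock against priming gave 0.19 ± 0.10 (edgeR adjusted p = 0.0962), and edgeR adjusted p = 0.0390 with the harvest date as a block.

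The plastid Hsp70 genes rose together at 38 °C and parted in primed heat shock. CPHSC70-1 had 122, 113 and 126 CPM in control replicates 1 to 3, and 747, 761 and 777 CPM in priming. Heat shock libraries had 134, 134 and 133 CPM, and primed heat shock libraries 639.9, 591 and 639.5 CPM. Priming and primed heat shock were thus high and unprimed heat shock stayed near control. The change was 6.34-fold in priming (log2 2.66 ± 0.10, edgeR adjusted p = 4.32e-12). In heat shock it was log2 0.15 ± 0.09 (edgeR adjusted p = 0.167), with libraries just above all controls. That value turned to -0.33 without a scaling factor and was called as a rise with upper-quartile factors and with DESeq2. Primed heat shock exceeded heat shock 4.66-fold (log2 2.22 ± 0.09, edgeR adjusted p = 2.75e-10), rank 204 of 26161 sequences by log2 change. It remained 1.22-fold below priming (log2 -0.29 ± 0.09, edgeR adjusted p = 0.0109; 0.20 and not called without a scaling factor, -0.18 and not called with upper-quartile factors).

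CPHSC70-2, the second plastid gene, had 99.1, 87.8 and 92.1 CPM in control replicates 1 to 3 and 399, 428 and 451 CPM in priming. It then had 117, 107 and 104 CPM in heat shock and 98.6, 96.9 and 94.5 CPM in primed heat shock. Here priming stood apart, and primed heat shock libraries lay below unprimed ones and among the controls. Priming raised it 4.58-fold (log2 2.20 ± 0.09, edgeR adjusted p = 3.51e-11). Primed heat shock against heat shock gave -0.17 ± 0.09 (edgeR adjusted p = 0.187), and against control 0.06 ± 0.09 (edgeR adjusted p = 0.609; log2 -0.30 without a scaling factor). The heat shock change of 0.23 ± 0.09 (edgeR adjusted p = 0.0412) passed narrowly. It was -0.25 without a scaling factor, was not called without a filter on low counts, and was not called when control replicate 1, 2 or 3 or heat shock replicate 1 or 2 was left out, with log2 0.15 to 0.25 and edgeR adjusted p from 0.0525 to 0.206.

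**Figure D2:**
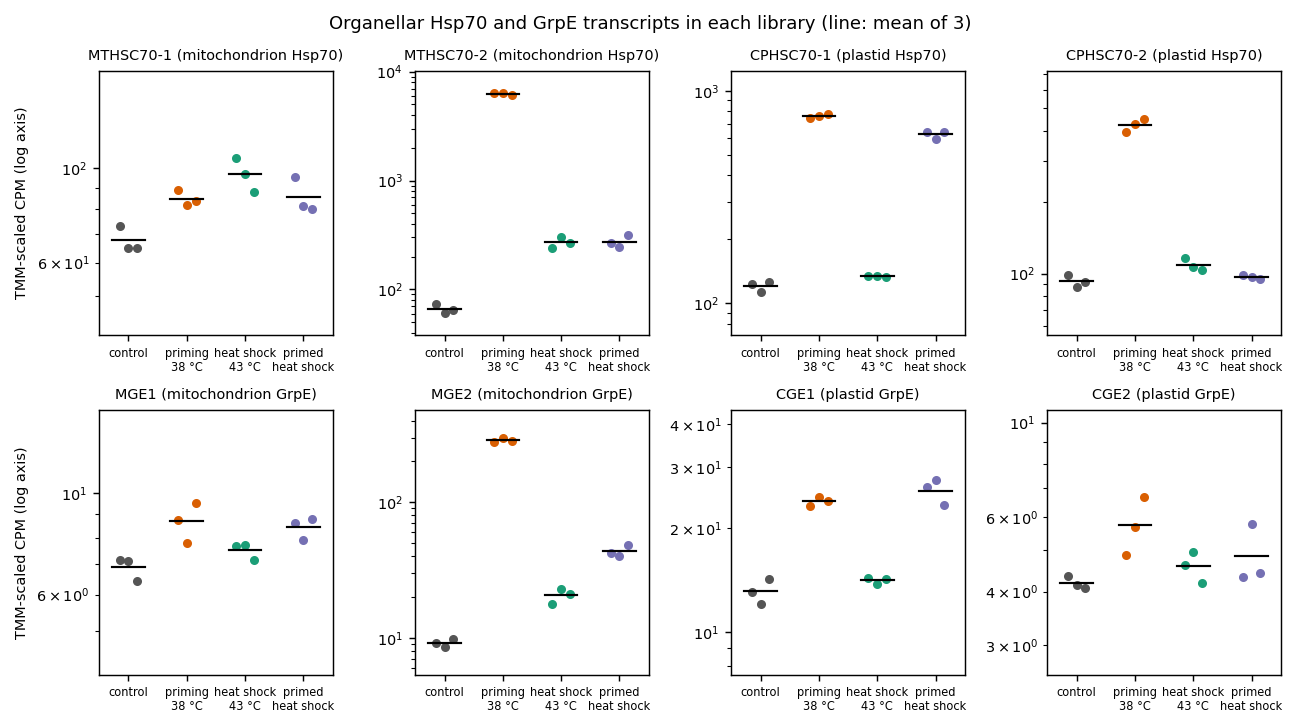
TMM-scaled CPM (log axis, own range per panel) of the 8 genes in the 4 groups, with 1 point per library and a line at the mean of 3. MTHSC70-2 and MGE2 stand highest in priming, at 6152 to 6387 and 278 to 299.7 CPM, while CPHSC70-1 and CGE1 are high in priming and in primed heat shock.

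Among the GrpE genes of mitochondria, MGE2 was the one that responded strongly, and it is known in Arabidopsis as heat-inducible and needed for tolerance of prolonged heat. It had 9.23, 8.59 and 9.74 CPM in control replicates 1 to 3, and 278, 299.7 and 285 CPM in priming. Heat shock gave 17.7, 22.8 and 21.2 CPM, and primed heat shock 42.1, 39.95 and 48.7 CPM. The 4 groups did not overlap, and their order was priming, primed heat shock, heat shock, control. Priming raised MGE2 31.3-fold (log2 4.97 ± 0.12, edgeR adjusted p = 4.52e-14) and heat shock 2.24-fold (log2 1.16 ± 0.11, edgeR adjusted p = 5.10e-07). Primed heat shock exceeded heat shock 2.12-fold (log2 1.08 ± 0.11, edgeR adjusted p = 3.17e-06). MGE1, the other mitochondrial exchange factor, lay at 6.41 to 7.13 CPM in controls, 7.80 to 9.53 in priming, 7.14 to 7.72 in heat shock and 7.90 to 8.80 in primed heat shock. It rose 1.26-fold in priming (log2 0.33 ± 0.10, edgeR adjusted p = 0.0104). That value was -0.53 without a scaling factor, and it was not called without a filter on low counts (edgeR adjusted p = 0.0554), without control replicate 3 (0.27, edgeR adjusted p = 0.0576) or without priming replicate 3 (0.26, edgeR adjusted p = 0.0525). In heat shock it gave 0.13 ± 0.10 (edgeR adjusted p = 0.302; log2 -0.35 without a scaling factor).

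Of the plastid GrpE genes, CGE1 rose with priming and in primed heat shock and CGE2 changed little. CGE1, whose loss is lethal to embryos, had 13.1, 12.1 and 14.2 CPM in control replicates 1 to 3, and 23.2, 24.6 and 24.1 CPM in priming. Heat shock libraries had 14.4, 13.8 and 14.3 CPM and primed heat shock libraries 26.2, 27.5 and 23.3 CPM. As with CPHSC70-1, priming and primed heat shock were high. Unprimed heat shock libraries of CGE1 overlapped the controls, while those of CPHSC70-1 lay just above them. Priming raised CGE1 1.83-fold (log2 0.87 ± 0.09, edgeR adjusted p = 9.52e-07), with log2 0.01 and no call without a scaling factor. Primed heat shock exceeded heat shock 1.81-fold (log2 0.86 ± 0.09, edgeR adjusted p = 4.58e-06), and by 0.98 without one. CGE2 ranged from 4.09 to 4.35 CPM in controls, 4.89 to 6.69 in priming, 4.196 to 4.95 in heat shock and 4.33 to 5.76 in primed heat shock. It was 1.37-fold higher in priming than in control (log2 0.46 ± 0.14, edgeR adjusted p = 0.0115), with -0.40 without a scaling factor and 0.34 (edgeR adjusted p = 0.0653) without priming replicate 3. Its other groups overlapped the controls, with log2 0.13 ± 0.14 in heat shock (edgeR adjusted p = 0.444; -0.35 without a scaling factor) and 0.08 ± 0.14 between primed and unprimed heat shock (edgeR adjusted p = 0.736).

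Across the 8 members, priming raised all 8 and lowered 0, where 26.7% of all sequences were raised and 27.1% lowered. The median member change was log2 1.53, against -0.02 over all sequences tested. Of the 8, MTHSC70-2 and MGE2 passed log2 3, a size that 2.27% of sequences reached with a call. With no scaling 4 members were raised (MTHSC70-2, CPHSC70-1, CPHSC70-2 and MGE2) and 2 lowered (MTHSC70-1 and MGE1). The median over all sequences was -0.88 in that setting. Heat shock against control raised 4 of 8 and lowered 0, with a median of 0.19, where 27.9% of sequences were raised, 24.5% were lowered and the median was 0.01. On unscaled counts that became 2 raised (MTHSC70-2 and MGE2) and 3 lowered (CPHSC70-1, MGE1 and CGE1), where the median over all sequences was -0.48. Primed heat shock against heat shock raised 3 of 8, CPHSC70-1, MGE2 and CGE1, where 12.1% of sequences were raised, and lowered 0, where 10.7% were lowered. The same 3 were raised without a scaling factor. Both 38 °C and 43 °C contrasts use the same control libraries, and the last contrast shares its heat shock libraries with the second, so their values stand side by side without a joint test.

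Against other groups, primed heat shock raised 6 of 8 and lowered 0 relative to control, where 32.1% of sequences were raised and 27.2% lowered. CPHSC70-1 was 5.19-fold, MGE2 4.74-fold, MTHSC70-2 4.14-fold and CGE1 1.96-fold the control level, and MTHSC70-1 and MGE1 were 1.27-fold and 1.22-fold. The latter changes were -0.02 and -0.07 without a scaling factor, and that of MGE1 was not called without a filter on low counts (log2 0.25), without control replicate 3 (log2 0.23) or without primed heat shock replicate 1 (0.28) or 3 (0.26). Relative to priming, heat shock lowered 5 of 8 and raised 0, where 29.0% of sequences were lowered and 33.8% raised. MTHSC70-2, MGE2, CPHSC70-1 and CPHSC70-2 were 23.2-fold, 14.0-fold, 5.70-fold and 3.91-fold lower, and CGE1 1.69-fold lower. Primed heat shock lowered 4 of 8 and raised 0 relative to priming, where 28.6% of sequences were lowered and 34.2% raised. MTHSC70-2, MGE2 and CPHSC70-2 were 22.9-fold, 6.60-fold and 4.41-fold lower, and CPHSC70-1 1.22-fold lower.

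**Figure D3:**
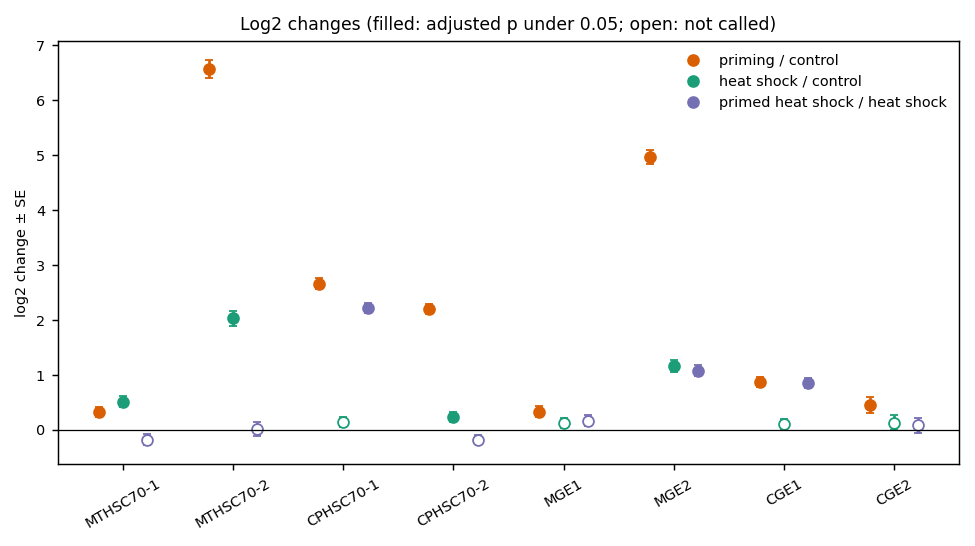
Log2 change ± SE (y axis) of each gene (x axis) for priming and for heat shock, each relative to control, and for primed relative to unprimed heat shock, with filled points called and open points not called. MTHSC70-2 at 6.57 and MGE2 at 4.97 lead in priming, and CPHSC70-1 at 2.22, MGE2 at 1.08 and CGE1 at 0.86 are the filled points between primed and unprimed heat shock.

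The balance within each pair of genes can be read from counts per kilobase in 1 library, which needs no scaling factor. In controls MTHSC70-2 supplied 49.0% ± 1.02 (SD, n = 3) of mitochondrial Hsp70 transcripts. This rose to 98.6% ± 0.0581 in priming and stood at 73.2% ± 3.48 in heat shock and 75.8% ± 3.18 in primed heat shock. Its ratio to MTHSC70-1 differed 75.9-fold between priming and control, with no overlap (exact two-sided permutation test, p = 0.1). With 3 libraries against 3 the smallest p that test allows is 0.1, and adjustment over the 48 ratio tests gave 0.109 at best, so no ratio could pass 0.05. MGE2 supplied 53.9% ± 2.92 of mitochondrial GrpE transcripts in controls, 96.7% ± 0.409 in priming, 70.4% ± 3.02 in heat shock and 81.8% ± 0.931 in primed heat shock. Between primed and unprimed heat shock the MGE2 ratio was 1.89-fold higher without overlap (exact permutation p = 0.1), while the MTHSC70-2 ratio overlapped (1.15-fold, exact permutation p = 0.6).

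In plastids the balance moved toward the gene numbered 1 in priming and in primed heat shock, and overlapped the controls in unprimed heat shock. CPHSC70-2 supplied 44.3% ± 1.25 of plastid Hsp70 transcripts in controls, 36.5% ± 0.994 in priming, 45.6% ± 1.43 in heat shock and 13.8% ± 0.628 in primed heat shock. In its libraries 1 to 3 the last group had 13.7%, 14.4% and 13.2%, and heat shock 47.2%, 45.1% and 44.5%. The ratio of CPHSC70-2 to CPHSC70-1 was 5.25-fold lower in primed than in unprimed heat shock (exact permutation p = 0.1, no overlap). CGE2 supplied 28.6% ± 1.93 of plastid GrpE transcripts in controls, 23.0% ± 2.54 in priming, 28.8% ± 2.07 in heat shock and 19.0% ± 1.83 in primed heat shock. Its ratio to CGE1 was 1.72-fold lower in primed than in unprimed heat shock (exact permutation p = 0.1, no overlap), and in heat shock against control it differed by log2 0.01 (exact permutation p = 0.9).

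**Figure D4:**
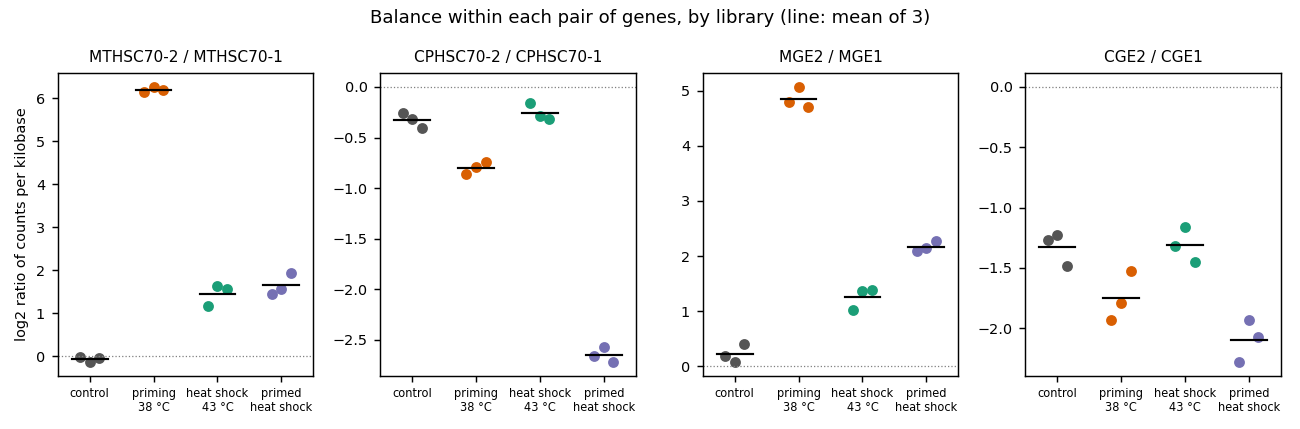
Log2 ratio of counts per kilobase (y axis, own range per panel) between both genes of each kind, by group, with 1 point per library and a line at the mean of 3. MTHSC70-2 and MGE2 gain on their partners most in priming, and CPHSC70-2 falls furthest behind CPHSC70-1 in primed heat shock.

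Transcripts of exchange factors and of chaperones did not keep a constant proportion. Summed per kilobase, mitochondrial Hsp70 transcripts outnumbered mitochondrial GrpE transcripts 4.57 ± 0.293 to 1 (SD, n = 3) in controls, 12.4 ± 0.459 in priming, 7.32 ± 0.323 in heat shock and 3.93 ± 0.0838 in primed heat shock. No library of 1 group overlapped another, and the ratio of GrpE to Hsp70 was 1.86-fold higher in primed than in unprimed heat shock (exact permutation p = 0.1). In plastids the proportion was 6.17 ± 0.195 Hsp70 to 1 GrpE in controls, 20.2 ± 0.404 in priming, 6.48 ± 0.117 in heat shock and 12.03 ± 1.49 in primed heat shock. There the ratio of GrpE to Hsp70 was 1.85-fold lower in primed than in unprimed heat shock (exact permutation p = 0.1, no overlap), the opposite direction to mitochondria. Mitochondrial Hsp70 transcripts were 0.624 ± 0.0329 of plastid ones in controls, 5.31 ± 0.273 times in priming, 1.501 ± 0.141 times in heat shock and 0.499 ± 0.0308 in primed heat shock. That ratio was 3.00-fold lower in primed than in unprimed heat shock (exact permutation p = 0.1, no overlap).

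**Figure D5:**
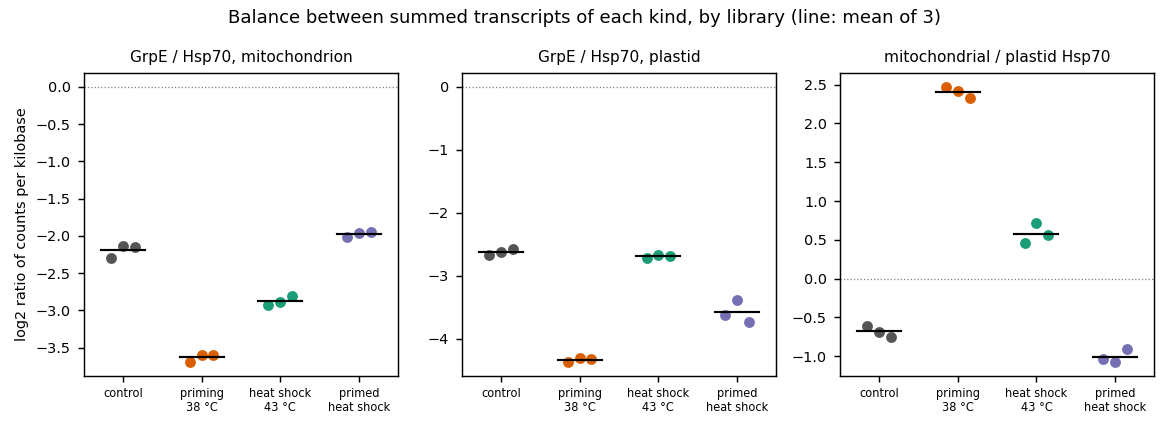
Log2 ratio of summed counts per kilobase (y axis, own range per panel) of GrpE to Hsp70 transcripts in mitochondria and in plastids and of mitochondrial to plastid Hsp70 transcripts, with 1 point per library and a line at the mean of 3. Primed heat shock lies above heat shock in the first panel and below it in the other panels.

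Set beside the Hsp70 genes of other compartments, the plastid share was largest in primed heat shock. Of Hsp70 transcripts per kilobase from 6 cytosolic, 3 endoplasmic reticulum, 2 mitochondrial and 2 plastid genes, plastid genes held 7.32% ± 0.390 in controls, 2.13% ± 0.204 in priming, 4.27% ± 0.391 in heat shock and 13.4% ± 1.02 in primed heat shock. Mitochondrial genes held 4.56% ± 0.219, 11.3% ± 0.627, 6.37% ± 0.101 and 6.66% ± 0.122 in the same order, and cytosolic genes 79.6% ± 1.23, 83.2% ± 1.13, 86.9% ± 0.698 and 75.7% ± 1.52. Organellar over cytosolic Hsp70 differed by 1.08-fold between priming and control (exact permutation p = 0.3) and was 2.16-fold higher in primed than in unprimed heat shock (exact permutation p = 0.1, no overlap). Of the 5 cytosolic genes tested, 5 rose in priming (median log2 4.74) and 5 in heat shock (1.34), where 26.7% and 27.9% of all sequences were raised. Without a scaling factor 5 and 3 rose. In primed against unprimed heat shock 3 of the 5 were lowered, where 10.7% of all sequences were lowered. The largest fall was that of HSC70-2 (AT5G02490, log2 -1.90 ± 0.15, edgeR adjusted p = 3.42e-07). Hsp70b (AT1G16030) was higher by 2.96 ± 0.16 (edgeR adjusted p = 3.32e-09). Of 3 endoplasmic reticulum genes, 2 rose in priming, where 26.7% of all sequences were raised. In heat shock 1 rose and 2 fell, where 27.9% and 24.5% of all sequences did. In primed against unprimed heat shock 1 rose, where 12.1% of all sequences did.

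Partners of the chaperone cycle and the Hsp70 genes of other compartments were examined in 8 lists with 79 genes, and described by counts. The lists came from textbook knowledge but were chosen with earlier results of these data known, so their counts are not independent of these data. Over all sequences 26.7% were raised and 27.1% lowered in priming, and 27.9% and 24.5% in heat shock. In primed relative to unprimed heat shock the shares were 12.1% and 10.7%, and the median changes were -0.02, 0.01 and -0.00 in this order. Without a scaling factor the medians of all sequences were -0.88, -0.48 and 0.12, and shares called in that setting are not given here. Unscaled counts of the lists below carry that shift. Of 11 J-domain proteins of organelles, 4 rose and 2 fell in priming (median log2 0.27), 1 rose and 3 fell in heat shock (0.09), and 4 rose and 2 fell in primed against unprimed heat shock (0.09). The counts in priming were near the 26.7% and 27.1% of all sequences. Unscaled, 0 rose and 9 fell in priming, 0 rose and 6 fell in heat shock, and 4 rose and 0 fell in primed heat shock. GFA2 (AT5G48030), a mitochondrial J-domain protein, rose by 0.73 ± 0.14 in priming (-0.12 without a scaling factor) and was lowered in heat shock by -0.36 ± 0.14 (edgeR adjusted p = 0.0372). It was 0.97 ± 0.14 higher in primed than in unprimed heat shock and 0.61 ± 0.14 higher in primed heat shock than in control. DJA6 (AT2G22360), a plastid J-domain protein, was 1.31 ± 0.08 higher in primed than in unprimed heat shock (edgeR adjusted p = 2.38e-08). J20 (AT4G13830) and J11 (AT4G36040), small plastid J-domain proteins, fell by 0.74 ± 0.12 and by 0.56 ± 0.09 in heat shock.

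The mitochondrial import channel and motor, 15 genes, rose in 10 cases in priming (median 0.47), 4 rose and 1 fell in heat shock (0.08), and 3 rose in primed against unprimed heat shock (0.19). The 4 that rose in heat shock are near the 27.9% of all sequences raised there. TIM23-2 (AT1G72750), a channel subunit, rose by 1.05 ± 0.10 in priming, and 0.19 without a scaling factor. TIM17-3 (AT5G11690), of the same channel, rose by 0.99 ± 0.15 in priming, by 1.45 ± 0.15 in heat shock and by 1.21 ± 0.15 between primed and unprimed heat shock. Unscaled, 0 of the 15 rose and 6 fell in priming, and 2 rose and 9 fell in heat shock. Of 9 plastid import genes 4 rose in priming (median 0.20), 2 fell in heat shock (0.12) and 6 rose between primed and unprimed heat shock (0.36). The 2 that fell are near the 24.5% of all sequences lowered in heat shock. HSP90.5 (AT2G04030), the stromal Hsp90 that works with plastid Hsp70, gave 2.00 ± 0.11, -0.31 ± 0.10 and 0.88 ± 0.10 in these comparisons. Unscaled, 1 of the 9 rose and 8 fell in priming, 5 fell in heat shock, and 3 rose in primed heat shock.

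Chaperonins, which fold proteins released from Hsp70 in a closed chamber, rose in 12 of 14 cases in priming (median 0.86). In heat shock 5 rose and 1 fell (0.14), and 11 rose between primed and unprimed heat shock (0.64). CPN60B2 (AT3G13470), a plastid subunit, rose by 5.82 ± 0.12 in priming and HSP60 (AT3G23990), of mitochondria, by 4.04 ± 0.10 (edgeR adjusted p = 2.98e-14). The plastid co-chaperonin AT3G60210 was 2.04 ± 0.09 higher in primed than in unprimed heat shock (edgeR adjusted p = 5.73e-10). On unscaled counts 6 chaperonins rose and 2 fell in priming, with a median of 0.01 against -0.88 over all sequences. In heat shock 0 rose and 6 fell, with a median of -0.34 against -0.48 over all sequences. Of 12 disaggregases and proteases 3 rose and 1 fell in priming (median 0.18), 4 rose and 4 fell in heat shock (0.10) and 6 rose in primed heat shock against heat shock (0.31). The rises in priming and in heat shock are near the shares of all sequences, 26.7% and 27.9%. CLPB3 (AT5G15450), the plastid disaggregase that works with Hsp70, gave 6.39 ± 0.14, 1.02 ± 0.11 and 1.93 ± 0.12, and its mitochondrial counterpart CLPB4 (AT2G25140) 4.76 ± 0.12, 0.46 ± 0.11 and 1.30 ± 0.11. On unscaled counts 8 of the 12 fell in priming, and 1 rose and 6 fell in heat shock. Of 7 tested genes of mitochondrial iron-sulphur assembly 3 rose in priming (median 0.27), 2 fell in heat shock (-0.08) and 2 rose in primed against unprimed heat shock (0.30), and the 2 that fell are near the 24.5% of all sequences lowered in heat shock. Unscaled, 0 rose and 5 fell in priming and 6 fell in heat shock.

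Patterns were compared with those of 9537 other nuclear genes that carry a symbol, by the root mean square difference in log2 CPM over the 12 libraries after centring on the control mean. Nearest to MTHSC70-2 was ATERDJ3A (AT3G08970), a J-domain protein of the endoplasmic reticulum, at 0.30, followed by Fes1A (AT3G09350), a cytosolic Hsp70 exchange factor, at 0.47. Nearest to MGE2 were the splicing regulator SR45a (AT1G07350), at 0.29, and FBS1 (AT1G61340), at 0.42. CPHSC70-1 had SDG37 (AT2G17900) at 0.27 and the gibberellin synthesis gene GA3OX1 (AT1G15550) at 0.31. CPHSC70-2 had the mitochondrial protease gene ftsh4 (AT2G26140) at 0.14 and the mitochondrial co-chaperonin CPN10 (AT1G14980) at 0.17. CGE1 had RPL9 (AT3G44890) at 0.10 and c-NAD-MDH2 (AT5G43330) at 0.12. The little-changed MTHSC70-1 had RSH1 (AT4G02260) at 0.12 and the mitochondrial Clp protease subunit NCLPP7 (AT5G23140) at 0.13, and MGE1 had EMB140 (AT4G24270) at 0.080 and RRP45a (AT3G12990) at 0.083. CGE2 had ABCB25 (AT5G58270) and BCDH BETA1 (AT1G55510), both at 0.11.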

How the data were processed

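Each deposited file gives 1 sample's raw counts for every reference transcript or locus, and both mates of a fragment appear to be counted. Build TAIR10 and the tools Bowtie2, SAMtools and DESeq2 are named in the submitters' processing notes. Their versions and roles, and whether counting used strand, were not given. A second deposited column, of another kind, holds the length of each sequence. The members and lists were chosen with earlier results of these data known. Here 15 ribosomal RNA loci (at most 0.934% of aligned reads) and the row of unplaced reads were left out. edgeR 4.0.16 in R 4.3.3 fitted all 12 libraries by group (TMM factors 0.648 to 1.44, filterByExpr with a minimum count of 10, robust quasi-likelihood). Standard errors are the absolute log2 change divided by the square root of F. Separate cultures are not stated for the replicates, and p-values then reflect the spread of these samples, which may be technical. Ratios used exact permutation tests (scipy 1.17.1) on counts divided by deposited length.

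Replicate numbers pair the samples, since the labels give each number 1 harvest date in all groups. Deviations of same-numbered libraries correlated by -0.08 to 0.13. Sequences, start codons and symbols came from RefSeq assembly TAIR10.1 (Biopython 1.88 for alignments), and no coordinate came from the files. Genes named are the 8 members, up to 2 called genes with the largest change per list and main comparison, and the 2 nearest patterns per member, with part of these printed. Alternatives were other scalings (also DESeq2 1.42.0), no filter, nuclear loci alone, the 2 compared groups alone, the replicate block, each library left out and, added after seeing the data, AT4G32208 merged with MTHSC70-2.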

Additional observations from a re-analysis of the deposited data

How the results depend on the processing

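Over the 8 members and 6 comparisons, 665 of 720 recomputed changes kept direction and call. Of the others, 17 lost a call, 12 gained one and 26 reversed, and the cause was not tested. With no scaling factor, members raised and lowered numbered 4 and 2 in priming against control and 2 and 3 in heat shock against control, and 1 and 3 members were raised in heat shock and primed heat shock against priming, where upper-quartile factors raised 1 in each. Directions reversed with no scaling factor as follows. In priming against control, MTHSC70-1 gave -0.54, MGE1 -0.53 and CGE2 -0.40. In heat shock against control, CPHSC70-1 gave -0.33, CPHSC70-2 -0.25, MGE1 -0.35, CGE1 -0.38 and CGE2 -0.35. In primed heat shock against control, MTHSC70-1 gave -0.022, CPHSC70-2 -0.30, MGE1 -0.074 and CGE2 -0.14. Against priming, heat shock gave 0.18 for MGE1 and 0.045 for CGE2, and primed heat shock 0.20 for CPHSC70-1, 0.46 for MGE1 and 0.26 for CGE2. Upper-quartile factors gave -0.0092 for MTHSC70-2 between primed and unprimed heat shock and 0.073 for MGE1 between primed heat shock and priming. With the replicate block 1 member, MTHSC70-1 (0.19), was raised in heat shock against priming, and the block changed no other member's call. For the ratios, pairing by replicate cannot change a mean difference, and with 3 pairs the sign-flip p cannot go below 0.25. The paired ratio tests therefore could not decide anything.

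Calls in the partner lists moved with no scaling factor to 17 raised and 38 lowered in priming and 7 and 40 in heat shock, each against control. They moved to 3 lowered in primed heat shock against heat shock, and to 17 raised and 14 lowered in primed heat shock against control. Against priming they became 15 and 26 in heat shock and 33 and 16 in primed heat shock. Without the factor the median change of all sequences was -0.88, -0.48, 0.12, -0.33, 0.43 and 0.57 in this order of comparisons. The list counts carry that shift, and shares of all sequences called in that setting are not given here. Leaving out 1 library reversed the direction of MTHSC70-1 between primed heat shock and priming (-0.070 to 0.058), MTHSC70-2 between primed and unprimed heat shock (-0.085 to 0.11), MGE1 between primed heat shock and priming (-0.12 to 0.026), CGE2 between primed and unprimed heat shock (-0.065 to 0.16) and the CGE2 to CGE1 ratio in heat shock against control (-0.065 to 0.084). CGE2 had 297 to 851 reads in a library.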
